A study of Mus musculus with 8 samples.

Results

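The 42 genes described here encode lysosomal enzymes and lysosomal membrane proteins, and were taken by name from a deposited table of 23038 mouse genes; every one of the 42 names was found. They comprise 9 proteases, 10 glycosidases, 5 sulfatases, 7 lipid enzymes and lipid-binding proteins, 9 membrane proteins, and Grn and Tfeb. RNA came from CAD cells (Cath.a differentiated), a mouse catecholaminergic neuronal line grown undifferentiated in 8% fetal bovine serum. The PFN1 knockout group consists of 4 libraries made after CRISPR/Cas9 targeting of Pfn1, which encodes profilin 1, a small protein that binds actin monomers, and the control group of 4 libraries that the labels title wild type but whose genotype field reads as a control knockout. The labels call the 4 samples of a group biological replicates and do not say whether they were separate clones or cultures, so the p-values measure the spread between these samples only. What the control cells received is not given in the sources used here.

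Lysosomes are acidic organelles in which hydrolases break down proteins, glycans, glycolipids and other lipids delivered by endocytosis and autophagy. Most of the soluble enzymes are made in the endoplasmic reticulum, tagged with mannose 6-phosphate in the Golgi and carried to the lysosome by receptors, while the membrane proteins line the organelle, move lipids, ions and metabolites across it, and resist digestion. Many lysosomal genes are controlled by TFEB and its relatives TFE3 and MITF, which bind a short palindromic element built on CACGTG, and neurons are among the cells most affected when single lysosomal genes are lost.

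Levels are given as RPKM, a read count scaled to gene length and library depth, so they can be compared between genes. Changes are log2 fold changes of RPKM + 1, knockout over control, from limma fitted across the 11465 genes whose mean reached 1 RPKM in either group, and calls were made below an adjusted p of 0.05. Depth was estimated from the low values at 28600000 to 33000000 reads in the knockout libraries and 26200000 to 34500000 in the control libraries. The targeted gene was at 139 ± 10.8 RPKM in knockout cells and 423 ± 16.4 RPKM in control cells (SD, n = 4 each), or 32.9% of control (log2 fold change -1.60, limma adjusted p = 3.7e-09). Some Pfn1 RNA was therefore still counted in the knockout libraries. A principal component analysis split the groups on its leading axis (66.5% of variance). On the second axis (14%), knockout library 1 lay at 11.5 and control library 4 at -11, against -6.42 to 5.14 for the other 6 libraries. The ribosomal RNA precursor Rn45s stood at 20330, 15130, 15600 and 14400 RPKM in knockout libraries 1 to 4, and at 23870, 22620, 24310 and 15690 RPKM in control libraries 1 to 4; its part in the results was not tested. Of 17 catecholaminergic and neuronal markers, 15 reached a mean of 1 RPKM in a group, and the 17 summed to 1160 to 1196 RPKM in the knockout and 934.6 to 984.6 RPKM in the control libraries. Most of that difference was from 1 gene, Chgb, for a secretory granule protein, at 347 ± 15.5 RPKM in knockout and 162 ± 20.7 RPKM in control cells; of the 15 markers tested 6 were higher, and 4 were lower, namely Th, Dbh, Phox2a and Gata3. Markers that define catecholamine cells were partly low: Slc6a2 was listed at 0 in every library, Ddc lay at 0.355 ± 0.109 RPKM in knockout and 0.339 ± 0.0699 RPKM in control cells, and Th at 0.773 ± 0.133 RPKM in knockout and 2.25 ± 0.404 RPKM in control cells. Macrophages and microglia are rich in lysosomes, and of 15 of their markers 5 were listed at 0 in every library and none reached a mean of 1 RPKM; the 15 summed to 0.241 to 0.769 RPKM in the knockout and 0.384 to 0.504 RPKM in the control libraries. The 7 fibroblast markers summed to 2.73 to 3.37 RPKM in knockout and 3.04 to 3.69 RPKM in control libraries, nearly all of it from Dcn, with Col3a1 listed at 0 throughout, and the 8 glial markers to 1.35 to 1.49 RPKM in knockout and 0.726 to 1.14 RPKM in control libraries, with Aqp4 and Olig2 listed at 0 throughout. The part of these marker levels in the lysosomal results was not tested.

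Of the 42 genes, 37 passed the filter and were tested. Of these, 22 were higher and 5 were lower in the knockout libraries, that is 59.5% and 13.5%, where 45.9% of all tested genes were called, 30.4% higher and 15.5% lower. The median of their log2 fold changes was 0.17, where that of all tested genes was 0.058, and the changes were modest, from -0.25 for Ids to 0.80 for Ctsa. Only Ctsa, Ctsz, Ctso and Arsa were called with a change of at least 1.5-fold in mean RPKM. The knockout and control values did not overlap for 25 of the 37, with the knockout libraries above in 20 and below in 5, where 41.4% of all tested genes did not overlap, 26.7% above and 14.7% below. Median-of-ratios scaling of the libraries left 17 of the lysosomal genes higher and 6 lower, while the shares of all genes tested under it were 22.5% higher and 25.1% lower. Without knockout library 1 and control library 4 the counts were 22 higher and 4 lower, where 38.5% of all genes tested without them were higher and 13.7% lower. In the authors' deposited table, 20 of the 37 are higher and 5 lower at an adjusted p under 0.05, and 35 of the 37 calls are the same, where 44.2% of all tested genes are called there, 29.7% higher and 14.5% lower; the other 2 are Ctsd and Psap, called here and not there. RNA from whole cultures was measured, so a change in the share of cells that express a gene and a change in RNA per cell cannot be told apart.

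**Figure D1:**
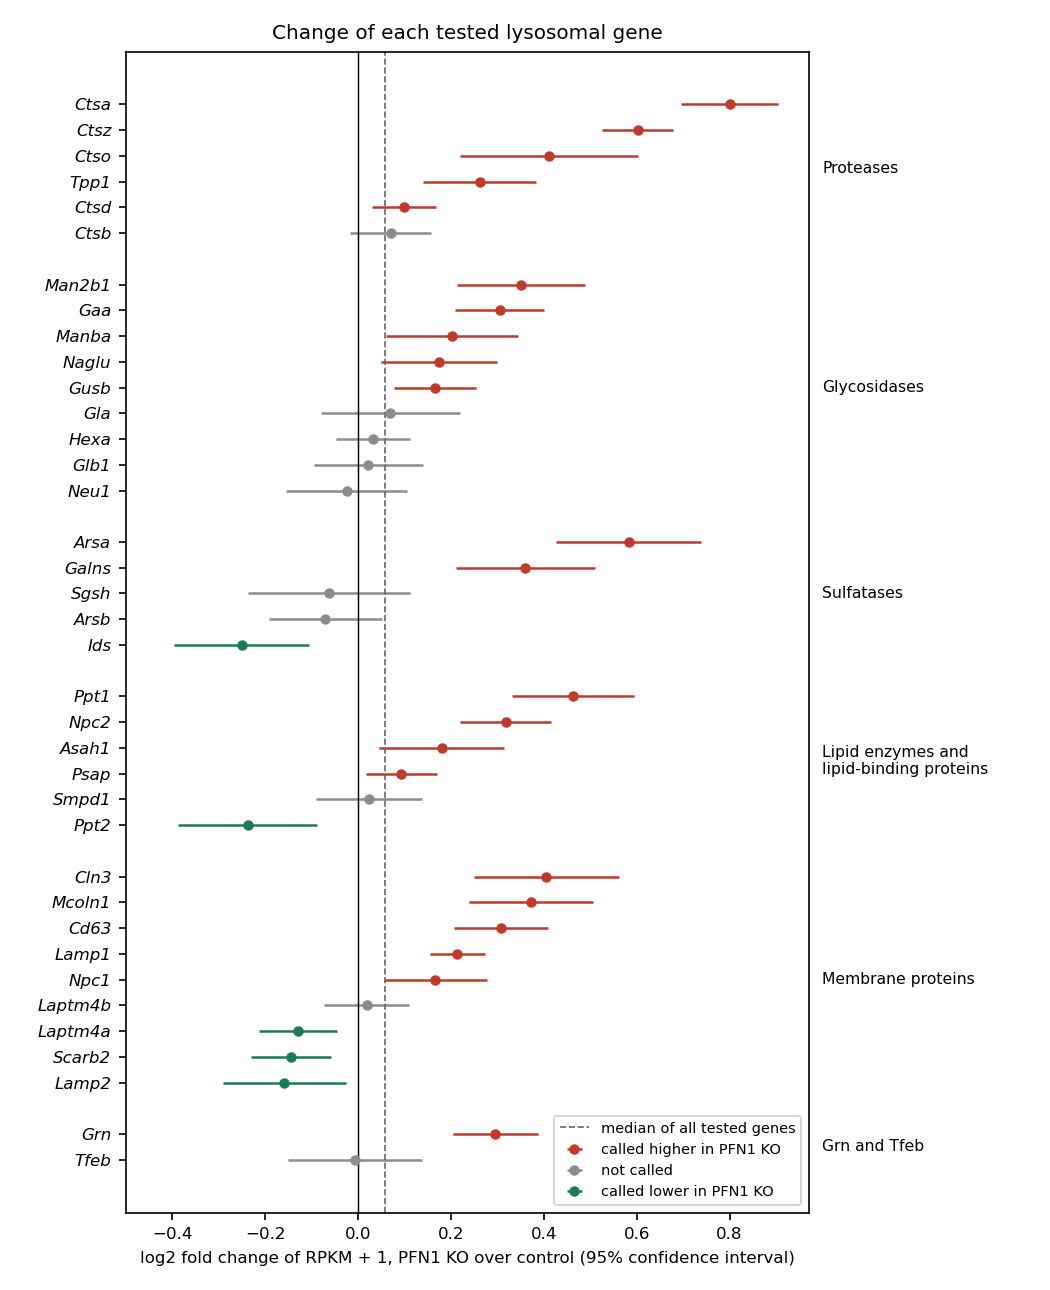
Log2 fold change of RPKM + 1 (knockout over control, horizontal axis) with its 95% confidence interval for each of the 37 tested genes, by class. The 5 genes called lower are 1 sulfatase, 1 lipid gene and 3 membrane proteins, and the dashed line marks the median of all tested genes, 0.058.

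The other 5 genes did not pass the filter. Ctsc and Ctsf, which encode the cysteine proteases cathepsin C and F, are listed at 0 in every library. So is Vamp7, a SNARE gene that most cells use, and a 0 in this table may also stand for a gene that was not counted. Ctsh, for cathepsin H, was at 0, 0.0703, 0.0203 and 0 RPKM in the knockout and 0.059, 0, 0 and 0 RPKM in the control libraries. Lipa, the gene for the lysosomal acid lipase that cleaves cholesteryl esters, was at 0.79, 1.06, 0.786 and 0.884 RPKM in the knockout and 1.02, 0.956, 0.847 and 1.12 RPKM in the control libraries. Idua, for the iduronidase that acts on heparan and dermatan sulfate, was at 0.935, 0.794, 0.956 and 1.2 RPKM in the knockout and 0.661, 0.566, 0.783 and 0.646 RPKM in the control libraries. The groups overlapped for Lipa and not for Idua, for which the authors' deposited table gives an adjusted p of 0.00237. Idua overlaps Dgkq in RefSeq, which rose by a log2 fold change of 0.43 (adjusted p = 0.000483, limma), and reads of the overlap cannot be assigned to 1 of them here.

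Among the proteases, 5 of 6 tested genes rose and none was called lower, with a median log2 fold change of 0.34. Of all tested genes 30.4% rose and 15.5% fell, with a median of 0.058. The largest change of the whole set was that of Ctsa, which encodes a serine carboxypeptidase that also holds beta-galactosidase and neuraminidase 1 in a complex. It was at 37.1, 36.5, 37.1 and 40.5 RPKM in knockout libraries 1 to 4, against 21.8, 21, 20.1 and 22.3 RPKM in control libraries 1 to 4. The lowest knockout library stood well above the highest control library, and the mean rose 1.78-fold (log2 fold change 0.80, SE 0.0475, adjusted p = 3.49e-07, limma). Glb1 and Neu1, the genes for the enzymes that Ctsa protects, were not called, at 6.5 ± 0.254 and 2.83 ± 0.136 RPKM in knockout cells and 6.38 ± 0.309 and 2.89 ± 0.159 RPKM in control cells (SD, n = 4 each). Glb1 overlaps Tmppe in RefSeq, which rose by a log2 fold change of 0.20 (adjusted p = 0.0231, limma).

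Ctsz, the gene for a cysteine carboxypeptidase, was at 109, 109.9, 111 and 118 RPKM in the knockout and 72, 73.4, 72.9 and 75.4 RPKM in the control libraries. Each group kept within a narrow range, far from the other, and the mean rose 1.53-fold (log2 fold change 0.60, SE 0.0352, adjusted p = 3.14e-07). Ctsa and Ctsz are the only 2 of the 42 genes on chromosome 2, whose 947 tested genes had a median log2 fold change of 0.26, with 68.5% called higher, against 0.043 and 27% for the genes of the other chromosomes. Both changed by more than the chromosome's median, and the part of that shift in their rise was not tested. Their spans overlap those of other genes in RefSeq, and the use of strand in counting is not given in the sources used here, so reads of these genes and their neighbours cannot be told apart where they overlap. The overlapping genes rose too: Pltp and Neurl2 beside Ctsa by log2 fold changes of 0.63 and 0.63, and Th1l beside Ctsz by 0.41. Without Ctsa and Ctsz, 20 of 35 genes (57.1%) were higher and 5 were lower.

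Ctso, for the cysteine protease cathepsin O, was the lowest of the tested proteases, at 1.99, 2.29, 2.38 and 1.75 RPKM in the knockout and 1.19, 1.21, 1.29 and 1.64 RPKM in the control libraries. Control library 4 came close to the lowest knockout library without reaching it, and the mean rose 1.58-fold (log2 fold change 0.41, SE 0.0875, adjusted p = 0.00267). Tpp1, for a tripeptidyl peptidase lost in a childhood neurodegenerative disease, rose to 13.4 ± 0.688 RPKM in knockout cells, against 11 ± 0.667 RPKM in control cells (log2 fold change 0.26, adjusted p = 0.00259). Ctsd, for the aspartic protease cathepsin D, was the most abundant protease, at 178, 173, 179 and 182 RPKM in the knockout and 163, 164, 166 and 172 RPKM in the control libraries. The ranges nearly touched, since control library 4 lay just under the lowest knockout library, and the rise was 1.07-fold (log2 fold change 0.10, SE 0.0314, adjusted p = 0.0231). That call was lost without any 1 of knockout libraries 3 and 4 and control libraries 1, 2 and 3 (adjusted p = 0.0529 to 0.0715), and under both other scalings and without the trended prior (adjusted p = 0.0701 to 0.533). Ctsb, for cathepsin B, was not called, at 47.9 ± 1.4 RPKM in knockout and 45.6 ± 1.73 RPKM in control cells (log2 fold change 0.07, 95% interval -0.017 to 0.16). It was called higher without knockout library 1 and control library 4 together (log2 fold change 0.10, adjusted p = 0.0387), and it overlaps Fdft1, which rose by a log2 fold change of 0.33.

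**Figure D2:**
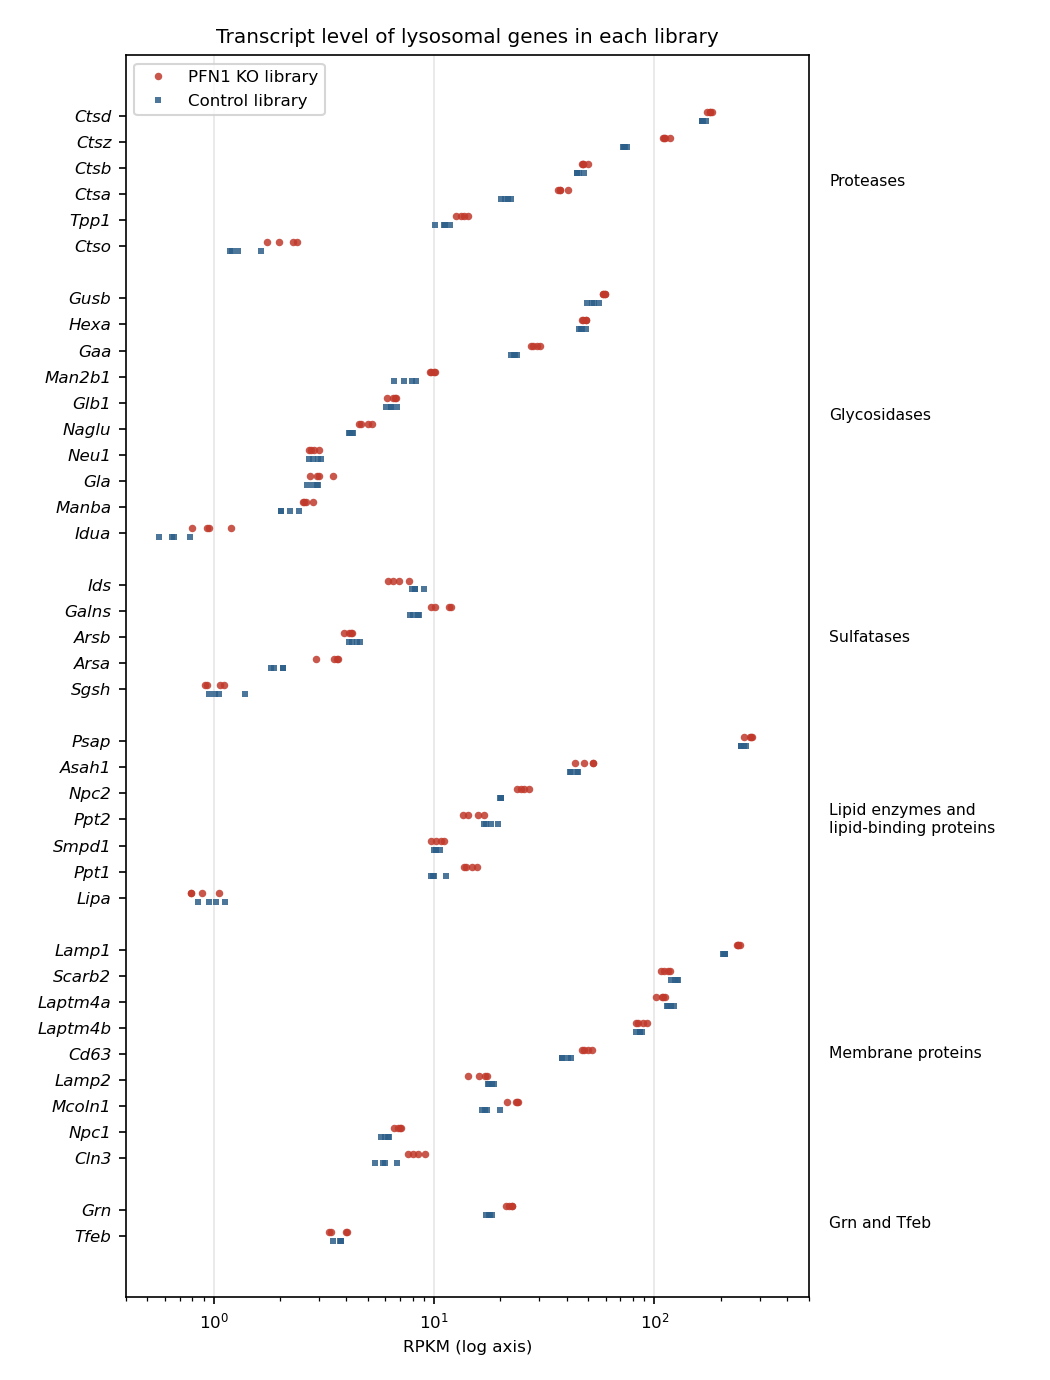
RPKM on a log axis in each library (knockout circles above control squares) for every gene but Ctsc, Ctsf and Ctsh, which are listed at 0 in several or all libraries. Levels ran from about 1 RPKM for Sgsh, Idua and Lipa to over 100 RPKM for Psap, Lamp1, Ctsd, Scarb2 and Laptm4a in both groups. Ctsz was over 100 RPKM in the knockout libraries only, and for Ctsa, Ctsz, Arsa and Ppt1 the groups stand clearly apart.

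Of 9 tested glycosidases 5 rose and none was called lower (median log2 fold change 0.17), where 30.4% of all tested genes rose and 15.5% fell. Man2b1, for the lysosomal alpha-mannosidase, was at 9.61, 10.1, 9.68 and 9.99 RPKM in the knockout and 6.59, 7.33, 7.92 and 8.24 RPKM in the control libraries. The knockout libraries lay close together above all the controls (log2 fold change 0.35, SE 0.0632, adjusted p = 0.000935). Gaa, for the acid alpha-glucosidase that digests glycogen, was at 29.2, 27.5, 28.1 and 30.3 RPKM in the knockout and 23.3, 22.2, 23.9 and 23 RPKM in the control libraries, again without overlap (log2 fold change 0.30, SE 0.0435, adjusted p = 0.000195). Manba, for beta-mannosidase, was at 2.58, 2.63, 2.83 and 2.54 RPKM in the knockout and 2.03, 2.01, 2.22 and 2.43 RPKM in the control libraries, with control library 4 nearest to the knockouts. The change was small (log2 fold change 0.20, SE 0.0651, adjusted p = 0.0246), and the call was lost without knockout library 3, control library 1 or control library 2 (adjusted p = 0.067 to 0.0791).

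Gusb, for beta-glucuronidase, was the most abundant glycosidase, at 58.3, 58.6, 59.4 and 59.5 RPKM in the knockout and 49.4, 53.1, 51.8 and 55.7 RPKM in the control libraries. All 4 knockout libraries lay within about 1 RPKM of one another and above the controls (log2 fold change 0.17, SE 0.0404, adjusted p = 0.00591). Naglu, for a glucosaminidase of heparan sulfate breakdown, rose to 4.87 ± 0.327 RPKM in knockout cells, against 4.19 ± 0.0702 RPKM in control cells (log2 fold change 0.17, adjusted p = 0.0267). The Naglu call was lost without any 1 of knockout libraries 2 and 3 and control libraries 1, 2 and 3 (adjusted p = 0.0582 to 0.0818), and under both other scalings (0.0689 and 0.0867). Gla, Hexa, Glb1 and Neu1, which remove terminal galactose, hexosamine or sialic acid from glycolipids and glycoproteins, were not called. Their 95% intervals of the log2 fold change were -0.08 to 0.22 for Gla, -0.047 to 0.11 for Hexa, -0.095 to 0.14 for Glb1 and -0.15 to 0.11 for Neu1.

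The 5 sulfatases went in both directions, 2 higher and 1 lower, and their median log2 fold change was -0.063. These counts are 40% and 20%, near the 30.4% and 15.5% of all tested genes. Arsa, for arylsulfatase A, which desulfates the myelin lipid sulfatide, was at 2.92, 3.65, 3.64 and 3.52 RPKM in the knockout and 1.83, 1.88, 2.05 and 2.06 RPKM in the control libraries. Knockout library 1 was the lowest of its group and still above every control, and the mean rose 1.76-fold (log2 fold change 0.58, SE 0.0713, adjusted p = 6.59e-05). Galns, which removes sulfate from keratan and chondroitin sulfate, was at 9.68, 11.7, 12 and 10.1 RPKM in the knockout and 8.56, 7.81, 8 and 8.46 RPKM in the control libraries. Knockout libraries 2 and 3 were the higher ones, and no library of 1 group reached the range of the other (log2 fold change 0.36, SE 0.0682, adjusted p = 0.00128). Galns overlaps Trappc2l, which rose by a log2 fold change of 0.42.

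Ids, for the iduronate sulfatase of heparan and dermatan sulfate breakdown, fell, at 6.19, 7.73, 6.53 and 6.91 RPKM in the knockout and 8.16, 8.19, 7.91 and 8.96 RPKM in the control libraries. Knockout library 2 came near the lowest control, and the other 3 lay well under it (log2 fold change -0.25, SE 0.0665, adjusted p = 0.00934, 82.3% of control). Ids was the largest decrease among the 37. Arsb and Sgsh, which act on dermatan and heparan sulfate, were not called, with 95% intervals of -0.19 to 0.052 and -0.24 to 0.11; Arsb was called lower under both other scalings. Sgsh had the fewest reads of the tested genes, an estimated 116 in its lowest library, against 24769 for Psap in its highest.

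**Figure D3:**
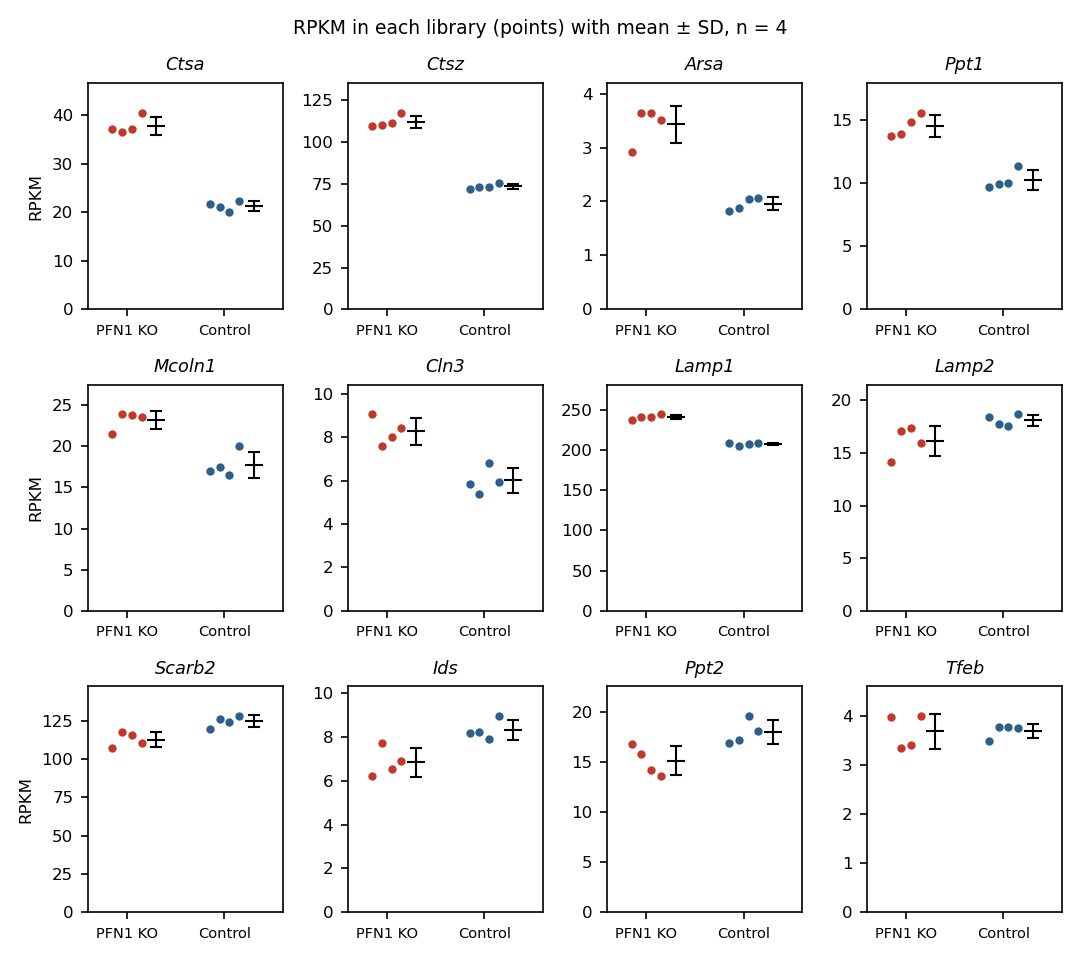
RPKM in each library (points, knockout left and control right, each axis from 0) with mean ± SD (n = 4) for 12 of the genes. Ctsa, Ctsz, Arsa, Ppt1, Mcoln1, Cln3 and Lamp1 lie higher in knockout cells, Lamp2, Scarb2, Ids and Ppt2 lower, and the Tfeb ranges overlap.

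Among the lipid enzymes and lipid-binding proteins, 4 of 6 tested genes rose and 1 fell (median log2 fold change 0.14), where 30.4% of all tested genes rose and 15.5% fell. Ppt1, for a thioesterase that strips palmitate from proteins, was at 13.7, 13.9, 14.8 and 15.6 RPKM in the knockout and 9.68, 9.92, 10.02 and 11.4 RPKM in the control libraries. The lowest knockout library stood above the highest control library, number 4 (log2 fold change 0.46, SE 0.0604, adjusted p = 0.000104, 1.41-fold in mean RPKM). Its relative Ppt2 fell, at 16.8, 15.8, 14.2 and 13.6 RPKM in the knockout and 16.9, 17.2, 19.6 and 18.1 RPKM in the control libraries. Here knockout library 1 almost met control library 1, and the other knockout libraries were lower (log2 fold change -0.24, SE 0.0686, adjusted p = 0.0145). Ppt1 overlaps Cap1 in RefSeq and Ppt2 overlaps Prrt1, and neither neighbour was called; Prrt1 was under the filter, at 0.111 ± 0.0992 RPKM in knockout and 0.0664 ± 0.107 RPKM in control cells.

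Npc2, the soluble protein that passes cholesterol to Npc1 in the lysosomal membrane, was at 23.8, 25.6, 27 and 24.7 RPKM in the knockout and 20.1, 19.8, 20.1 and 20.2 RPKM in the control libraries. The controls were almost identical and all below the knockouts (log2 fold change 0.32, SE 0.0445, adjusted p = 0.000174). Psap, the precursor of the saposins that help enzymes reach glycolipids, was the most abundant of the 42 genes, at 274, 256, 272 and 276 RPKM in the knockout and 247, 246, 262 and 256 RPKM in the control libraries. Its groups overlapped, through knockout library 2, and the change was slight (log2 fold change 0.093, SE 0.0349, adjusted p = 0.0469). The Psap call was lost without knockout library 1, 3 or 4 or without control library 1, 2 or 4 (adjusted p = 0.0518 to 0.135), and under 5 of the other alternatives (adjusted p = 0.0683 to 0.727). Asah1, for acid ceramidase, was at 43.4, 52.7, 52.8 and 47.9 RPKM in the knockout and 41.7, 45, 41.5 and 44.7 RPKM in the control libraries, with knockout library 1 inside the control range (log2 fold change 0.18, adjusted p = 0.0314). Its call was lost without knockout library 2, 3 or 4 or control library 1 or 3 (adjusted p = 0.0505 to 0.0871), and under 4 of the other alternatives (adjusted p = 0.0506 to 0.124). Smpd1, for acid sphingomyelinase, was not called (95% interval -0.091 to 0.14).

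The 9 membrane proteins were all tested. Of these, 5 rose and 3 fell (median log2 fold change 0.17), where 30.4% of all tested genes rose and 15.5% fell. Cln3, for a multi-pass membrane protein lost in juvenile Batten disease, was at 9.07, 7.58, 8.02 and 8.42 RPKM in the knockout and 5.86, 5.4, 6.82 and 5.96 RPKM in the control libraries. Control library 3 was the highest of its group and lay under every knockout (log2 fold change 0.40, SE 0.0714, adjusted p = 0.000812). Mcoln1, for the lysosomal calcium channel TRPML1, was at 21.5, 23.9, 23.8 and 23.5 RPKM in the knockout and 16.9, 17.4, 16.5 and 19.98 RPKM in the control libraries. Knockout library 1 and control library 4 were nearest to each other, and the groups did not overlap (log2 fold change 0.37, SE 0.0609, adjusted p = 0.000493). Cd63, for a tetraspanin of late endosomes, was at 52.1, 46.9, 50.1 and 48 RPKM in the knockout and 40.5, 37.9, 38.2 and 41.9 RPKM in the control libraries, again apart (log2 fold change 0.31, SE 0.0465, adjusted p = 0.000288). Npc1, the cholesterol exporter of the lysosome, rose to 6.89 ± 0.221 RPKM in knockout cells, against 6.03 ± 0.222 RPKM in control cells (adjusted p = 0.0191), a call lost without knockout library 3 or control library 1 (adjusted p = 0.0547 and 0.0569) and under both other scalings (adjusted p = 0.0632 and 0.0844). Npc1 overlaps 3110002H16Rik, which rose to 16.3 ± 1.1 RPKM in knockout cells, against 11.9 ± 0.812 RPKM in control cells.

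The heavily glycosylated membrane proteins Lamp1 and Lamp2, which coat the inner face of the lysosome, moved in opposite directions. Lamp1 was at 238, 240.5, 240.2 and 244 RPKM in the knockout and 208, 205, 208 and 209 RPKM in the control libraries. Both groups were tight and far apart for the size of the change, 1.16-fold (log2 fold change 0.21, SE 0.0273, adjusted p = 8.92e-05). Lamp2 was at 14.2, 17.1, 17.4 and 16 RPKM in the knockout and 18.4, 17.7, 17.6 and 18.7 RPKM in the control libraries. Knockout libraries 2 and 3 lay just under the controls and library 1 well under them (log2 fold change -0.16, SE 0.0603, adjusted p = 0.0488). The Lamp2 call was lost without knockout library 1 or 4 or without any 1 control library (adjusted p = 0.0671 to 0.105), and under 4 of the other alternatives (adjusted p = 0.0609 to 0.134). Per kilobase, Lamp2 transcript was the scarcer in both groups.

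Scarb2, for LIMP-2, an integral membrane protein of lysosomes, fell, at 107, 118, 115 and 110.1 RPKM in the knockout and 119, 126, 124 and 128 RPKM in the control libraries. Knockout library 2 almost reached control library 1, and the log2 fold change was -0.14 (SE 0.0396, adjusted p = 0.0108). Laptm4a, for a small transmembrane protein of late endosomes, was at 102, 111, 109.8 and 109 RPKM in the knockout and 119, 114, 115 and 123 RPKM in the control libraries, so that it fell by a little and without overlap (log2 fold change -0.13, SE 0.0386, adjusted p = 0.0172). Its relative Laptm4b was not called, at 86.9 ± 4.5 RPKM in knockout and 85.7 ± 2.43 RPKM in control cells (95% interval -0.073 to 0.11). Whether the changes of Lamp1 and Lamp2, of Ppt1 and Ppt2 or of Laptm4a and Laptm4b differ from each other was not tested.

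Grn encodes progranulin, a secreted and lysosomal precursor of granulin peptides, and was at 22.6, 21.3, 21.9 and 22.5 RPKM in the knockout and 17.2, 18, 17.7 and 18.4 RPKM in the control libraries. Every knockout library exceeded every control (log2 fold change 0.30, SE 0.0418, adjusted p = 0.000184). Tfeb, the transcription factor gene, was at 3.98, 3.35, 3.42 and 4.01 RPKM in the knockout and 3.49, 3.78, 3.79 and 3.75 RPKM in the control libraries. Knockout libraries 1 and 4 lay above and libraries 2 and 3 below all the controls, and the change was not called (log2 fold change -0.006, 95% interval -0.15 to 0.14, adjusted p = 0.949).

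Over the classes, the summed RPKM of the proteases was 391.5 ± 9.51 in knockout and 319 ± 8.35 in control cells (SD, n = 4 each), a ratio of 1.23. For the glycosidases it was 166 ± 1.54 in knockout and 149 ± 4.8 in control cells, a ratio of 1.12, and for the lipid genes 385 ± 7.34 in knockout and 355 ± 8.69 in control cells, a ratio of 1.08. For the membrane proteins it was 652 ± 13.5 in knockout and 623 ± 11.7 in control cells, a ratio of 1.05. The protease sum is made up largely of Ctsd, Ctsz, Ctsb and Ctsa, and the membrane sum largely of Lamp1, Scarb2, Laptm4a and Laptm4b. Most of the difference in the protease sum was from Ctsz and Ctsa, both on chromosome 2, where 68.5% of tested genes were called higher. Their means were 112 and 37.8 RPKM in knockout and 73.4 and 21.3 RPKM in control cells. The part of chromosome 2 in the protease ratio was not tested. Under median-of-ratios scaling 4 proteases and 4 glycosidases were higher and none of either lower, 2 lipid genes were higher and 1 lower, 2 sulfatases higher and 2 lower, and 4 membrane proteins higher and 3 lower. Of all genes tested under that scaling, 22.5% were higher and 25.1% lower.

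**Figure D4:**
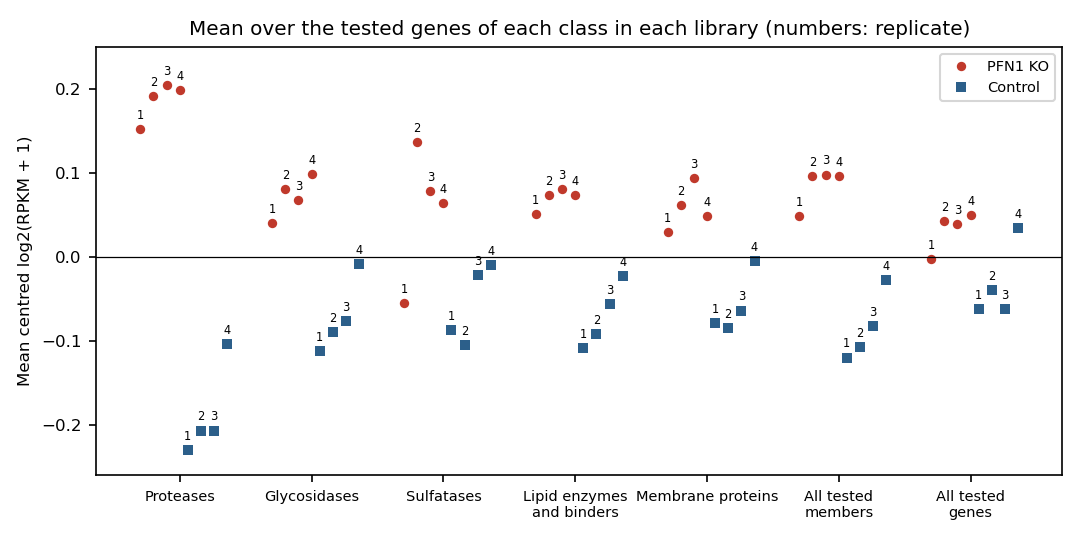
Mean over the tested genes of each class of log2(RPKM + 1), centred on each gene's mean over the 8 libraries, with 1 point per library, numbered by replicate (knockout left, control right). Knockout library 1 is the lowest knockout and control library 4 the highest control for all tested members together, at 0.049 and -0.028, and the same 2 libraries stand out among all tested genes, at -0.003 and 0.034.

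On the scale of that plot, protease means lay at 0.152 to 0.205 in the knockout and -0.23 to -0.104 in the control libraries. The sulfatases spread most, from -0.055 in knockout library 1 to 0.137 in knockout library 2, and overlapped the controls, at -0.105 to -0.01. Membrane proteins lay at 0.029 to 0.094 in the knockout and -0.085 to -0.005 in the control libraries.

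RefSeq promoter windows on GRCm38.p6, from 250 bases before to 50 after a gene's start, were at hand for 36 of the 42 genes. CACGTG, which reads the same on both strands, was present in 12 of the 36 (33.3%), against 8.09% of 27025 genes with a window and 12% of the 9080 tested genes with one. The longer TCACGTGA, which contains CACGTG and is also its own reverse complement, was present in 5 of the 36 (13.9%), against 1.12% of all and 2.35% of the tested genes. CACGTG was present in 8 of 19 genes called higher, in none of the 5 called lower, in 3 of 8 not called and in 1 of 4 not tested. By class it was in 3 of 7 proteases, 4 of 10 glycosidases, 2 of 4 sulfatases, none of 6 lipid genes and 3 of 7 membrane proteins. TCACGTGA was in Ctsa, Ctsd, Cln3 and Mcoln1, called higher, and in Gla, which was not called. These counts were not tested, a match is not a binding site, and a gene with more than 1 window counted once. Windows of 5 genes that rose are shown because they hold the motif, beside that of Lamp2, which fell and has none; capitals mark CACGTG or, where the flanking bases match too, TCACGTGA.
Ctsa, chr2:164833523-164833822, + strand: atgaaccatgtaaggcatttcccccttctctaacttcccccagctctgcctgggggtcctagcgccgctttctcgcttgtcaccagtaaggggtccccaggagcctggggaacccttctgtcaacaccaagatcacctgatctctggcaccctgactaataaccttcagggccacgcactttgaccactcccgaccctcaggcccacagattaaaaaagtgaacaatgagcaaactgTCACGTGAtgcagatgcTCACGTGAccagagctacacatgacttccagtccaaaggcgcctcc
Mcoln1, chr8:3500269-3500568, + strand: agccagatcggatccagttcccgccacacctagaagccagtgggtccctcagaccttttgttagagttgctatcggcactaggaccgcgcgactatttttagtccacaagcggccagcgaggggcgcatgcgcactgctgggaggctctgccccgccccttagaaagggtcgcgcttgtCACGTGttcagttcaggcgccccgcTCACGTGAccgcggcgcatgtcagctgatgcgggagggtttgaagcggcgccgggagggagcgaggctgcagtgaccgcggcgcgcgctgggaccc
Cln3, chr7:126583187-126583486, - strand: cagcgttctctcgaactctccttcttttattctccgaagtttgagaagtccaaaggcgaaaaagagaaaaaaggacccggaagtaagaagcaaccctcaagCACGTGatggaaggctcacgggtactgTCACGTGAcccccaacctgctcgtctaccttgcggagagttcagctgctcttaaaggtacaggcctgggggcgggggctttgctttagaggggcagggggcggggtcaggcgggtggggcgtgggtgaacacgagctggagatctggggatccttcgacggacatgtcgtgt
Ctsd, chr7:142387778-142388077, - strand: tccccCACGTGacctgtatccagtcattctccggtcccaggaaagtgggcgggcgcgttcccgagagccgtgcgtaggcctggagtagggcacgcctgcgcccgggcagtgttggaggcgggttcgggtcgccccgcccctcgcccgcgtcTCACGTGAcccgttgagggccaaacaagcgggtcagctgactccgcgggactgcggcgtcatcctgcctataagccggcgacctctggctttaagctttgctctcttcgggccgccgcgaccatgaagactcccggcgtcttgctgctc
Lamp1, chr8:13158911-13159210, + strand: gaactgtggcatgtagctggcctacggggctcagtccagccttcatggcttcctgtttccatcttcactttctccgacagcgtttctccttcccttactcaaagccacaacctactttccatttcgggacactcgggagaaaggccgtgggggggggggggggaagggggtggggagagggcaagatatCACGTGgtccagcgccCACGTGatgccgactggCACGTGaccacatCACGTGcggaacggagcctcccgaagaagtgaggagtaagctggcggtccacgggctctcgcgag
Lamp2, chrX:38456411-38456710, - strand: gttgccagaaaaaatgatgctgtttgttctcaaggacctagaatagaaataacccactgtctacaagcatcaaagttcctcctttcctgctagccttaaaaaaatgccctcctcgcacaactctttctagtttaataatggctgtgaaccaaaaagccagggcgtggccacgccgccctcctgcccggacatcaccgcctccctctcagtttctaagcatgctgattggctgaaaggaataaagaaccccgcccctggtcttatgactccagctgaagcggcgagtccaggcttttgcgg

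Positions are those of the first C of CACGTG. The Ctsa window belongs to 1 of 2 starts in RefSeq, with a TCACGTGA 12 bases before and another 5 bases after it, and the window of its other start had none. Mcoln1 had TCACGTGA 45 bases and CACGTG 71 bases before its start, and Cln3 had them 121 and 149 bases before one of its 2 starts. Ctsd had TCACGTGA 98 bases and CACGTG 245 bases before its start. Lamp1 had 4 copies of CACGTG, at 15, 28, 45 and 61 bases before its start. Ctsz, Ctso and Ppt1, which rose more than Mcoln1, had no match in their windows.

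The rest of the lysosomal system was read from 6 further lists. The V-ATPase is the proton pump that acidifies the lysosome, and of 20 tested subunit and assembly genes 13 rose and 1 fell (65% and 5%; 30.4% and 15.5% of all tested genes; median log2 fold change 0.16). The largest changes were those of Atp6v0b, at 73.2 ± 5.57 RPKM in knockout and 54.9 ± 1.86 RPKM in control cells, Atp6v1c1, at 88.4 ± 1.57 RPKM in knockout and 70.4 ± 1.43 RPKM in control cells, and Atp6v0d1, at 129.8 ± 1.95 RPKM in knockout and 104 ± 3.13 RPKM in control cells (adjusted p = 9.01e-05, 1.59e-05 and 1.9e-05, limma). Atp6ap2, for an accessory protein of the pump, was the member that fell, to 35 ± 3.19 RPKM in knockout cells, against 40.1 ± 1.82 RPKM in control cells (adjusted p = 0.0216, limma). The Atp6ap2 call was lost without knockout library 4, control library 2 or control library 4, and without knockout library 1 and control library 4 together (adjusted p = 0.0517 to 0.0605). Median-of-ratios scaling gave 9 higher and 1 lower. Of all genes tested under it, 22.5% were higher and 25.1% lower, to be set beside each list below.

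Of 26 tested genes listed as other acid hydrolases and their activators 15 rose and 2 fell (57.7% and 7.69%, median 0.20), where 30.4% and 15.5% of all tested genes did. Under median-of-ratios scaling 11 were higher and 4 lower, where 22.5% and 25.1% of all genes were. Ctsl, for cathepsin L, rose to 114 ± 3.83 RPKM in knockout cells, against 65.4 ± 3.44 RPKM in control cells. Dpp7, a dipeptidyl peptidase gene on chromosome 2, rose to 6.01 ± 0.807 RPKM in knockout cells, against 3.16 ± 0.456 RPKM in control cells. The 2 listed genes that fell were Manea, for an endomannosidase of the Golgi and not of the lysosome, and Scpep1, for a serine carboxypeptidase. They fell to 4.04 ± 0.519 and 39.5 ± 2.37 RPKM in knockout cells, against 4.93 ± 0.254 and 43.7 ± 2.04 RPKM in control cells (adjusted p = 0.0245 and 0.0368, limma). The Manea call was lost without control library 1 or 4 and the Scpep1 call without any 1 of knockout libraries 1, 2 and 4 and control libraries 2, 3 and 4 (adjusted p = 0.0503 to 0.086). Both were also lost with no filter (adjusted p = 0.0563 and 0.0594), and Scpep1 without the trended prior (adjusted p = 0.0589). Neither gene was called without knockout library 1 and control library 4, where 16 of the hydrolases were higher and none lower. Of all genes tested without these libraries, 38.5% were higher and 13.7% lower. Of 32 other lysosomal membrane proteins and transporters 16 rose and 2 fell (50% and 6.25%, median 0.12), and 13 and 3 did so under median-of-ratios scaling. Pqlc2, a cationic amino acid exporter, rose 1.52-fold, Tmbim1 1.49-fold and Mfsd12 1.39-fold in mean RPKM, while the peptide transporter gene Slc15a3 fell to 72.9% and the amino acid transporter gene Slc36a1 to 79.3% of control.

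Among 19 tested genes that tag and sort the enzymes, 5 rose and 1 fell (26.3% and 5.26%, median 0.026), both shares below those of all tested genes; under median-of-ratios scaling 4 were higher and 5 lower. Nagpa, for the uncovering enzyme that completes the mannose 6-phosphate tag, rose to 7.65 ± 1.78 RPKM in knockout cells, against 5.04 ± 0.257 RPKM in control cells. Ap1s1, an adaptor subunit gene, rose 1.24-fold, and Gga2, for a sorting adaptor that recognises the mannose 6-phosphate receptors, fell to 70.8% of control (log2 fold change -0.42, adjusted p = 0.000153). The mannose 6-phosphate receptor genes M6pr and Igf2r, chosen after their values were seen, were not called, at 27.4 ± 0.612 and 0.8287 ± 0.0902 RPKM in knockout cells and 25 ± 1.73 and 1.06 ± 0.172 RPKM in control cells (adjusted p = 0.0525 and 0.096, limma). M6pr was called higher without control library 4, with the 5 RPKM filter, with the replicate block, and without knockout library 1 and control library 4 together (adjusted p = 0.0133 to 0.0495), and Igf2r lower under both other scalings (adjusted p = 0.0295 and 0.0346). Igf2r is also lower in the authors' deposited table (their log2 fold change -0.36, their adjusted p = 0.0157), and M6pr is not called there.

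Of 20 genes of the TFEB family and of mTORC1 control at the lysosome 7 rose and 2 fell (35% and 10%, median 0.14), close to the 30.4% and 15.5% of all tested genes. Under median-of-ratios scaling 6 were higher and 3 lower, and without knockout library 1 and control library 4 the counts were 12 and 2, where 38.5% of all genes were higher. Rragd, for a Rag GTPase that brings mTORC1 to the lysosome, had the largest change, down to 6.97 ± 0.525 RPKM in knockout cells, against 13.1 ± 0.607 RPKM in control cells (log2 fold change -0.82, SE 0.059, adjusted p = 1.49e-06). Rraga, for another Rag GTPase, rose 1.31-fold. Tsc1 and Tsc2, whose products form a brake on mTORC1, went in opposite directions, Tsc1, on chromosome 2, to 5.29 ± 0.331 RPKM in knockout cells, against 3.59 ± 0.25 RPKM in control cells, and Tsc2 to 25.7 ± 0.789 RPKM in knockout cells, against 29.8 ± 1.18 RPKM in control cells. The TFEB relatives Tfe3 and Mitf, chosen for description after their values were seen, rose to 20.4 ± 0.917 and 3.09 ± 0.144 RPKM in knockout cells, against 16.5 ± 0.374 and 2.28 ± 0.131 RPKM in control cells (adjusted p = 0.000311 and 0.00127, limma), while Tfec is listed at 0 in every library.

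Of 30 genes of late endosome and lysosome trafficking 13 rose and 1 fell (43.3% and 3.33%, median 0.14), where 30.4% and 15.5% of all tested genes did. Under median-of-ratios scaling 9 were higher and 2 lower. The tethering-complex genes Vps16 and Vps39 rose to 27.1 ± 1.12 and 17 ± 0.402 RPKM in knockout cells, against 18.2 ± 1.21 and 12.1 ± 1.28 RPKM in control cells, and both lie on chromosome 2. Vamp8, for a SNARE of late endosome and lysosome fusion, fell to 1.27 ± 0.406 RPKM in knockout cells, against 2.8 ± 0.289 RPKM in control cells (log2 fold change -0.76, SE 0.112, adjusted p = 0.000252).

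**Figure D5:**
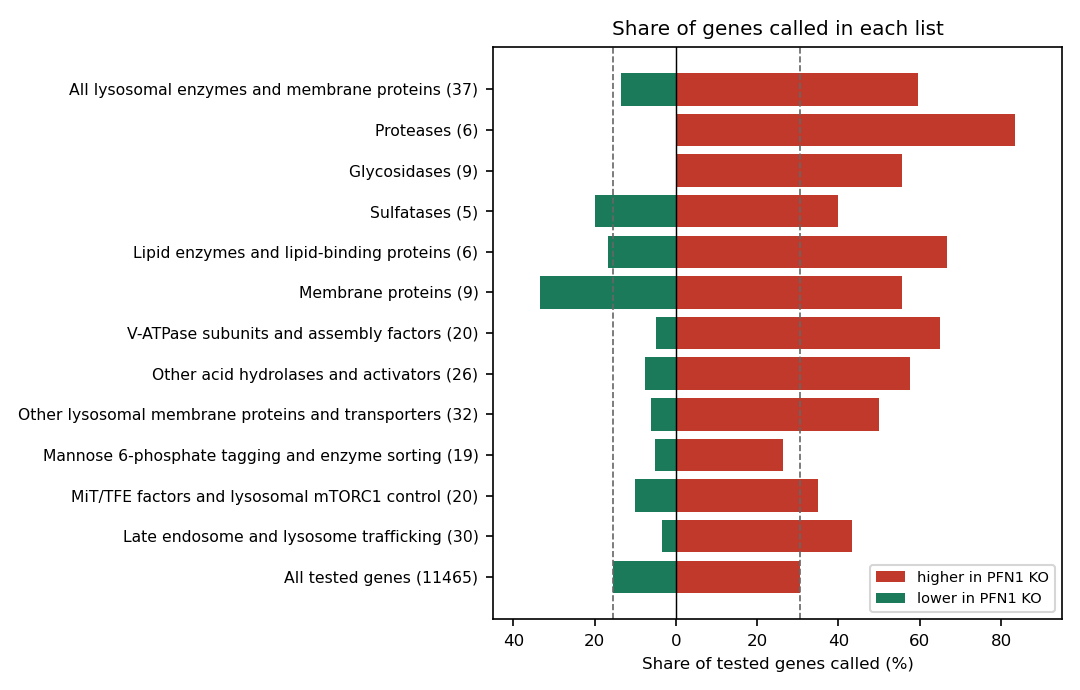
Share of tested genes called higher (right of 0) or lower (left of 0) in knockout cells, in percent, for the lysosomal classes, the 6 further lists and all tested genes; the number tested is in parentheses and dashed lines mark the shares of all tested genes, 30.4% and 15.5%. The proteases extend farthest to the right, to 83.3%, the membrane proteins farthest to the left, to 33.3%, and the sorting list stays inside both dashed lines. Among the proteases called higher, Ctsa and Ctsz lie on chromosome 2, where 68.5% of tested genes were called higher.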

How the data were processed

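The authors deposited 1 table with an RPKM value per gene and library, their own log2 fold change and mean log2 CPM, and their p-values, per the file headers. Libraries were stranded and depleted of ribosomal RNA, per the labels' protocols. Tools named in the submitters' processing notes, without roles, are edgeR, TopHat, Bowtie, RSEM and CASAVA; the notes also name the human build hg19, while the table lists mouse genes. The annotation, settings and use of strand are not given in the sources used here. Low RPKM values stood in steps of whole reads (99.6% of 2741 low genes, within 0.02 of a read), which gave relative depth, and the mean log2 CPM of genes listed at 0 gave its scale, taking a prior of 2 counts.

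Values were taken as log2(RPKM + 1) and fitted with limma (version 3.58.1; R 4.3.3) on the group alone, letting the prior variance follow the mean. The filter was a mean of 1 RPKM in at least 1 group, with Benjamini-Hochberg adjustment over 11465 genes, two-sided. The recovery of known fold changes by this fit was tested on simulated data, drawn as independent counts with the same dispersion for every gene. The simulation held no library that stood apart, as knockout library 1 and control library 4 do here. It changed only a small part of the genes, where 45.9% of tested genes were called here. None of its fold changes was as small as those of many lysosomal genes called here. It therefore cannot show how well such small changes are recovered. The alternatives were a pseudocount of 0.1, no filter, a filter of 5 RPKM, 2 scalings (median-of-ratios and upper-quartile), no trend, a replicate block, each library left out, and knockout library 1 and control library 4 left out together. Genes and lists were chosen with earlier results of these data known. Genes given in full are, per class, the 3 largest called changes, the most abundant gene and each called decrease, with Grn and Tfeb; in each further list, up to 3 of the largest called changes and up to 2 against the majority; a few of these are not reported here. Of gene numbers, 22959 matched RefSeq on GRCm38.p6, used for names, chromosomes and overlaps; all 221 list symbols were found, 6 of them through RefSeq.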

Additional observations from a re-analysis of the deposited data

Results flagged for a closer look

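Within groups of 4, a gap test (Dixon, 95%) marked 4 single libraries among the 74 groups formed by the 37 tested lysosomal genes, where chance marks about 1 group in 20. Knockout library 4 was high for Ctsa, at 40.5 RPKM against 36.5 to 37.1 RPKM in the other knockout libraries. The same library was high for Ctsb, at 50.03 RPKM against 47.1 to 47.3 RPKM. Knockout library 1 was low for Mcoln1, at 21.5 RPKM against 23.5 to 23.9 RPKM. Control library 1 was low for Tfeb, at 3.49 RPKM against 3.75 to 3.79 RPKM in the other control libraries.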

How the results depend on the processing

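Over the alternatives the number of lysosomal genes called higher ranged from 16 to 22 and the number called lower from 4 to 6. For all genes these numbers were 2578 to 4415 and 1380 to 2871, with 8403 to 18131 genes tested. Leaving out 1 library gave 16 to 21 lysosomal genes higher and 4 to 5 lower. Of all genes it gave 2888 to 3941 higher and 1447 to 1657 lower, with 11446 to 11480 tested. Of the 22 genes called higher 16 kept their call in every alternative that tested them, as did 4 of the 5 called lower; 30 of 38 further genes named kept their side of the threshold and their sign. All genes called lower numbered 1772 as reported, 2871 with median-of-ratios scaling and 2758 with upper-quartile scaling, with 2578 and 2701 higher against 3489. Signs turned for 7 genes that were not called as reported. With median-of-ratios scaling the log2 fold change was -0.0017 for Ctsb, -0.039 for Hexa, -0.041 for Glb1, -0.043 for Smpd1, -0.054 for Laptm4b and -0.044 for Cln6. With upper-quartile scaling it was -0.031 for Hexa, -0.033 for Glb1, -0.035 for Smpd1, -0.045 for Laptm4b and -0.035 for Cln6. Leaving out 1 library gave -0.0011 (without control 3) to 0.048 for Glb1, -0.0059 (without knockout 4) to 0.055 for Smpd1, -0.010 (without knockout 3) to 0.044 for Laptm4b, and -0.017 (without control 4) to 0.063 for Cln6. For Tfeb it gave 0.030 (without knockout 2), 0.022 (without knockout 3), 0.002 (without control 2) and 0.0028 (without control 3). Leaving out knockout 1 and control 4 together gave -0.0092 for Cln6. Deviations from the group means had correlations of 0.176, 0.0233, -0.192 and -0.0839 between same-numbered libraries. Centring each group makes such correlations balance around 0, so they cannot show whether the numbers pair the libraries. With the replicate block 22 lysosomal genes were higher and 4 lower, and 3477 and 1728 of all genes. RPKM carries no direct depth, the + 1 narrows changes near 1 RPKM, and the cause of each difference between settings was not tested.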

Other observations

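Genes were also grouped by the disease or substrate they are known for, in lists written after the values were seen and therefore given without a test. Of 13 genes mutated in neuronal ceroid lipofuscinosis, a group of neurodegenerative storage diseases, 12 were tested, of which 10 were higher in knockout cells and none was called lower (83.3%, where 30.4% of all tested genes were higher; median log2 fold change 0.28). Besides Ppt1, Tpp1, Cln3, Ctsd and Grn, these included Dnajc5, on chromosome 2, at 29.7 ± 1.34 RPKM in knockout and 23 ± 1.4 RPKM in control cells, Kctd7, at 2.65 ± 0.127 RPKM in knockout and 1.87 ± 0.187 RPKM in control cells, Mfsd8 and Atp13a2. The Ctsd call is among those lost when single libraries are left out, and Ctsd is not called in the authors' deposited table. The Atp13a2 call was lost under both other scalings and without knockout library 2 or 4 or control library 1 or 2 (limma adjusted p = 0.0805 to 0.118). Cln6 and Cln8 were not called, at 10.04 ± 0.274 and 1.78 ± 0.0524 RPKM in knockout cells and 9.89 ± 0.838 and 2.08 ± 0.21 RPKM in control cells, and Ctsf is listed at 0. Cln8 was called lower under both other scalings (limma adjusted p = 0.0201 and 0.025) and without the trended prior (0.0491). Its groups did not overlap, and it is lower in the authors' deposited table (their adjusted p = 0.048), where 9 genes of the list are higher and 1 lower.

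Of 11 genes that break down glycosaminoglycans 9 were tested, of which Galns, Naglu and Gusb rose, Ids fell and 5 were not called (median log2 fold change -0.063). These shares, 33.3% higher and 11.1% lower, are near the 30.4% and 15.5% of all tested genes. Hgsnat, which acts on heparan sulfate, was at 11.5 ± 0.954 RPKM in knockout cells and 12.2 ± 0.481 RPKM in control cells. Whether the lists differ was not tested.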
